A study of Mus musculus with 16 samples.

Results

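The proteases that mouse mast cells store in their secretory granules were followed through 10 genes: the chymases Cma1, Mcpt4, Mcpt1 and Mcpt2, their chromosomal neighbours Ctsg, Mcpt8 and Gzmb, the tryptases Tpsb2 and Tpsab1, and the carboxypeptidase Cpa3. They were found by gene name on the array, with Mcpt5, Mcpt6 and Mcpt7 accepted as older names of Cma1, Tpsb2 and Tpsab1. The 10 were among 27670 gene or transcript names on the array, and the search gave 12 probes of 41174, since Cma1 and Mcpt4 have 2 probes each; Tpsb2 stood under the name Mcpt6. All 12 passed a filter on dim probes that kept 25394 probes, and all were well above background in both channels on all 16 arrays.

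The RNA came from mast cells grown out of mouse bone marrow for more than 4 weeks in 10% serum with interleukin 3 (5 ng/ml) and stem cell factor (40 ng/ml), which the design text calls immature, at a purity above 90% by the receptors FcERIa and c-kit. Each of the 16 arrays, read in both colours, set cells given a polyclonal goat antibody that stimulates TIM-3, an inhibitory receptor of immune cells, against cells given control goat IgG (each 15 ug/ml). There were 4 groups of 4 arrays: cells left resting or activated, each taken after 2 h or 16 h of antibody. Where a value is given for each group it follows the order resting 2 h, activated 2 h, resting 16 h, activated 16 h, called the group order. Activated cells had been loaded for 1 h with 5 ug/ml of anti-DNP IgE, and received 100 ng/ml of its antigen, DNP-HSA, at the time of the antibody. Anti-TIM-3 cells carried the dye Cy5 and IgG cells Cy3 on every array, so an effect of the antibody that is equal in all 4 groups and a dye bias of the probe cannot be told apart. Such a bias cancels between the ratios of 2 groups, or between levels in 1 dye. Whether replicates are separate cultures is not stated in the labels; the spread that the p-values rest on may be technical.

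Mast cell chymases and tryptases are serine proteases that are trimmed to their active form and held in the granule, together with carboxypeptidase A3, on heparin chains of the proteoglycan serglycin. Cross-linking of IgE on the cell surface releases them within minutes, and new transcripts refill the store. Chymases cut like chymotrypsin and tryptases like trypsin, while carboxypeptidase A3 trims the ends of peptides. Mcpt4 and Tpsb2 are known from connective tissue mast cells and Mcpt1 and Mcpt2 from mucosal mast cells.

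In Cy3, 53.7% to 62.1% of an array's spots passed the scanner's background test, and no spot was saturated. In Cy5 the 4 arrays of slide 4 had more passing spots (63.1% to 67.7%) than the other 12 (54.8% to 61.2%). The mast cell label held, as 10 of 10 marker genes (among them Kit, Fcer1a and Gata2) were well above background on all arrays. Markers of other cells were present too: 9 of 10 for macrophages and dendritic cells were kept by the filter and 6 of 7 for basophils, but only 4 of 10 for neutrophils (Elane, Ltf, Camp, Ngp, Ly6g and Retnlg were not) and 6 of 10 for lymphocytes and NK cells (Gzma was not).

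The antibody ratio, anti-TIM-3 over IgG, was called (limma, Benjamini-Hochberg adjusted p under 0.05 over all kept probes) for 4 of the 10 genes in resting cells at 2 h, all higher. Of all probes 12.6% were called there, 6.18% higher and 6.47% lower. After 2 h of activation it was again 4 genes, all higher, beside 32.9% of all probes, 18.1% higher and 14.7% lower. In resting cells at 16 h 5 genes were higher and 2 lower, beside 18.8% of all probes, 10.1% higher and 8.72% lower. After 16 h of activation 6 were higher and 4 lower, beside 27.7% of all probes, 15.7% higher and 12% lower. The median log2 ratio of the 10 genes was 0.10, 0.21, 0.14 and 0.18 in group order, beside 0.00, 0.01, 0.01 and 0.01 over all probes. These counts describe a list chosen with the results known.

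**Figure D1:**
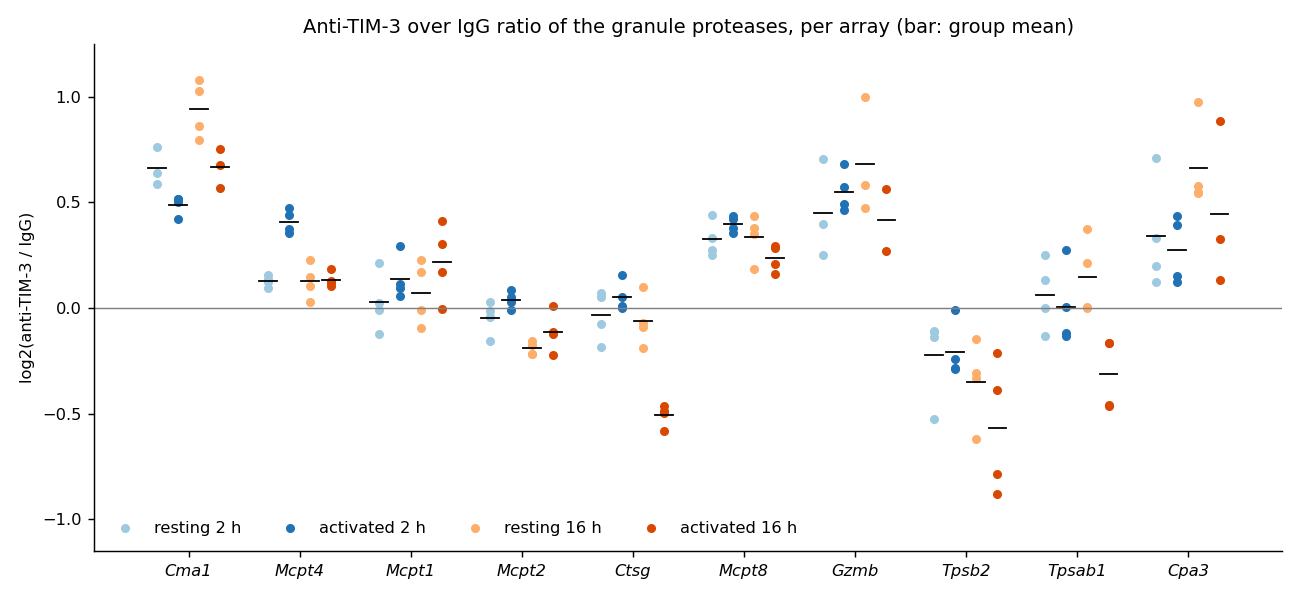
Log2 ratio of anti-TIM-3 over IgG cells (y axis) for the brightest probe of each of the 10 genes (x axis); each point is 1 array, colours are the 4 groups and black bars are group means. Ctsg lies below 0 in activated cells at 16 h, between -0.58 and -0.46, and Mcpt4 stands apart from its other groups in activated cells at 2 h, between 0.36 and 0.47.

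Cma1 encodes mast cell protease 5, a chymase by sequence that cuts like elastase in the mouse. At 2 h its brightest probe gave log2 ratios of 0.76, 0.64 and 0.59 in resting and 0.52, 0.52, 0.50 and 0.42 in activated cells. At 16 h they were 1.03, 0.86, 1.08 and 0.79 in resting and 0.75, 0.68 and 0.57 in activated cells. On 2 arrays the spot was an outlier and left out. Every measured array was thus above 0, in all 4 groups. The second Cma1 probe was also above 0 on all 15 arrays it was measured on, but lower, with means of 0.27, 0.20, 0.48 and 0.27 in group order.

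Cpa3, the carboxypeptidase, lay above 0 on 15 of 15 measured arrays, from 0.12 to 0.97, and was called in resting (0.66 ± 0.21, SD, n = 4, adjusted p = 0.00107) and activated cells at 16 h (0.45 ± 0.39, SD, n = 3, adjusted p = 0.0152, and 0.23 and not called without replicate 3). With Feature Extraction's processed signals the 16 h values were 0.27 and 0.13, neither called. At 2 h the Cpa3 ratios were 0.34 and 0.27, not called (adjusted p = 0.0534 and 0.067), but called under median centring in place of loess, at 1.13 and 1.18, and -0.041 and -0.043 with the processed signals. Gzmb, granzyme B, a killer-cell protease that cultured mast cells also make, lay above 0 on 12 of 12 measured arrays and was called in all 4 groups, with means of 0.45, 0.55, 0.68 and 0.42 (adjusted p 0.0108, 0.000321, 0.000831 and 0.0219); 4 of its spots were outliers, which left 2 arrays in activated cells at 16 h. Leaving out replicate 3 ended the Gzmb call in resting 2 h (0.32) and in activated 16 h (0.27), as did Feature Extraction's processed signals (0.15 and 0.18). Mcpt8, a granzyme-like protease best known from basophils, and the brighter Mcpt4 probe were above 0 on 16 of 16 arrays. Outside activated cells at 2 h the Mcpt4 means were 0.13 in each group and called. Those in resting cells lost the call without replicate 1, 2 or 4 at 2 h (0.12, 0.12 and 0.13) and without replicate 1 or 4 at 16 h (0.12 and 0.095), and with the mean over both Mcpt4 probes (0.081 and 0.049). Of all kept probes 3.32% were above 0 on every array, and for these 5 genes a rise with the antibody and a bias toward Cy5 cannot be told apart.

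For the brightest 3 of them the ratios stood beside those of other bright probes. The probes of Cpa3, Cma1 and Gzmb ranked 20, 25 and 127 by brightness among 25394, a rank that says where a probe lies on the scanner's scale and not how much mRNA there is. The 100 brightest other probes had median log2 ratios of 0.61, 0.51, 0.57 and 0.53 in group order, and 79% of them were above 0 on all arrays. The group means of Cpa3 and Gzmb lay between 0.27 and 0.68, on both sides of those medians. The brightest Cma1 probe lay above the median in resting cells at 2 h (0.66) and at 16 h (0.94 ± 0.14, SD, n = 4). In activated cells it lay below at 2 h (0.49) and above at 16 h (0.67 ± 0.092, SD, n = 3). The second Cma1 probe, ranked 197, lay below the median in all 4 groups (0.27, 0.20, 0.48 and 0.27). These SDs are between arrays, and whether Cma1 stands apart from the spread of the 100 bright probes was not tested. All spots of these 3 probes were read by the scanner at its low gain and scaled up, in both channels on all 16 arrays. The part of brightness and gain in these ratios was not tested.

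**Figure D2:**
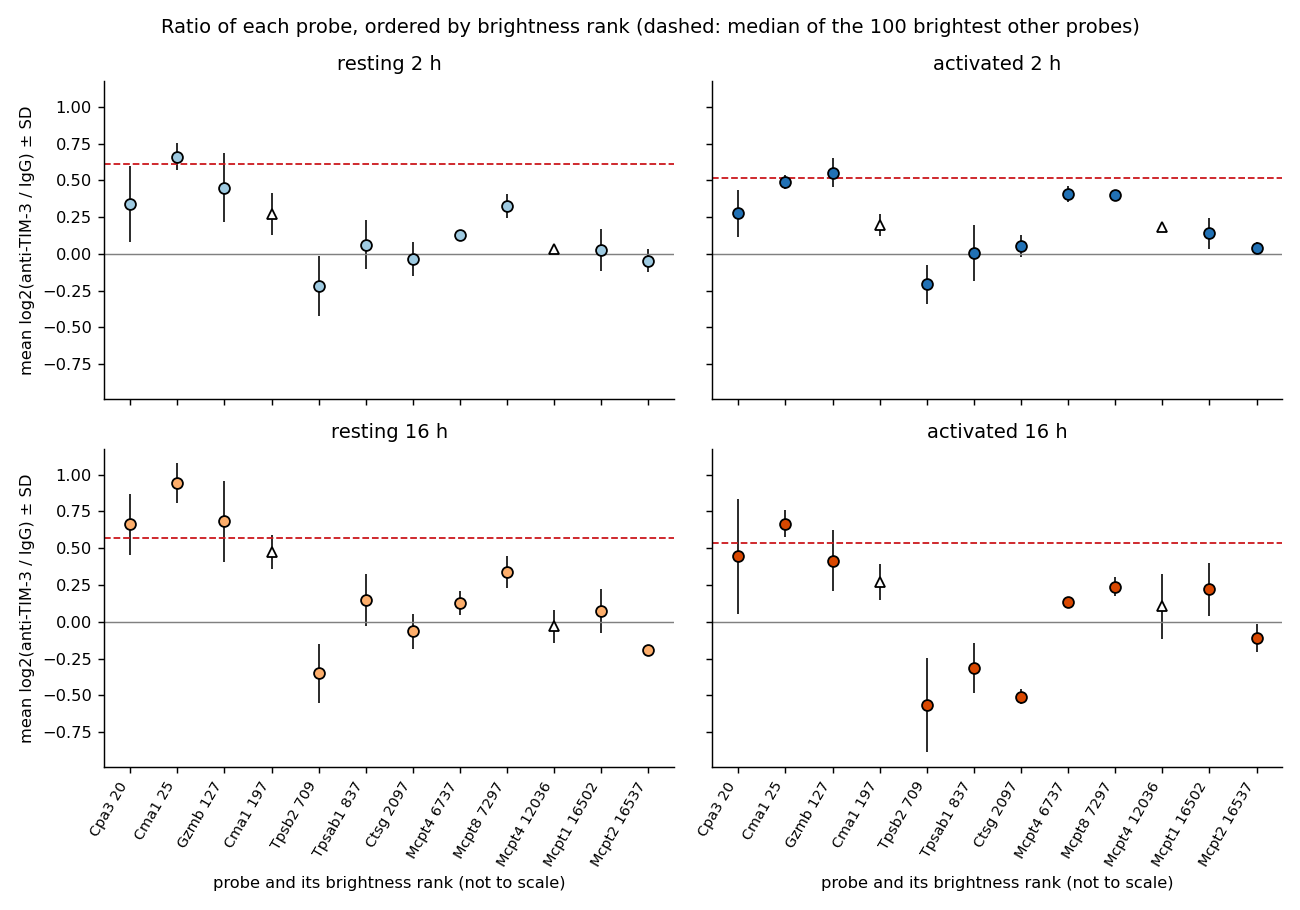
Mean log2 ratio with SD (y axis) of the 12 probes, ordered from the brightest to the dimmest with the rank beside the name (x axis, not to scale), in the 4 groups; circles are a gene's brightest probe, triangles the second probe, and the dashed line is the median of the 100 brightest other probes. The brightest probes of Cpa3, Cma1 and Gzmb lie between 0.27 and 0.94, on both sides of that line. Tpsb2, Tpsab1 and Ctsg at ranks 709, 837 and 2097 lie below it, as does the second Cma1 probe.

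Between groups, where a constant dye bias cancels, the Cma1 ratio differed by antigen at 16 h: it was 0.27 lower in activated than in resting cells (adjusted p = 0.0354). The difference was -0.37 within slide 1 and -0.28 within slide 4, the slides that held both groups. Each within-slide value, here and below, rests on only 1 or 2 arrays per group. The call was lost without activated replicate 1, 3 or 4 or resting replicate 1 or 3 (differences of -0.27, -0.28, -0.23, -0.25 and -0.23). On activated replicate 1 this probe was an outlier and not measured, so leaving that array out removed no Cma1 value. The second probe differed by -0.21 (adjusted p = 0.161). For the brightest probe it was -0.10 under median centring in place of loess and -0.21 with Feature Extraction's processed signals, neither called (adjusted p = 0.563 and 0.157). At 2 h the difference was -0.17 (adjusted p = 0.221). Levels within the anti-TIM-3 cells rose from 2 h to 16 h by 0.36 in resting and 0.33 in activated cells (adjusted p = 0.00198 and 0.00214), while in the IgG cells they differed by 0.08 and 0.16 (adjusted p = 0.38 and 0.0723). The second probe was called higher at 16 h in both kinds of cells. Scaled to the 75th percentile of each channel, the rises in anti-TIM-3 cells were 0.23 and 0.08 and no longer called. In activated cells with quantile scaling the rise was 0.53, called. With the mean over both probes the rises were 0.56, called, and 0.37, not called. Where the spot of 1 probe was an outlier, that mean held the other probe alone. This was so in resting 2 h replicate 1 and activated 16 h replicate 1 (second probe only, 15.46 and 15.62). In activated 16 h replicate 2 only the brightest probe was left (16.87). The probes differ in level, so these means mix probe and time.

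Mcpt4, the mouse chymase closest in activity to the human enzyme, had an antibody ratio that differed by antigen at 2 h. Its brighter probe gave ratios of 0.14, 0.16, 0.09 and 0.12 in resting cells at 2 h and of 0.44, 0.37, 0.36 and 0.47 in activated cells at 2 h, groups that do not overlap. At 16 h the ratios were 0.15, 0.11, 0.03 and 0.23 in resting and 0.13, 0.10, 0.18 and 0.12 in activated cells, again near the resting level. After 2 h of activation the ratio was 0.41 ± 0.055 (SD, n = 4, adjusted p = 9.94e-08). A constant dye bias would be part of that ratio and cancels only in the difference between groups.

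The difference between activated and resting cells at 2 h was 0.28 (SE 0.047, adjusted p = 0.00123), and Mcpt4 was the only 1 of the 10 genes called in that comparison. Of all probes 5.64% were called there, 4.03% higher and 1.6% lower. The Mcpt4 difference was 0.27 within slide 2 and 0.32 within slide 3. From 2 h to 16 h the ratio in activated cells fell by 0.28 (adjusted p = 0.00058), which under median centring in place of loess was a fall of 0.13 (adjusted p = 0.209) and with the mean over both probes -0.18, still called. In levels, Mcpt4 in anti-TIM-3 cells was 0.21 higher in activated than in resting cells at 2 h (adjusted p = 0.0441), and the call was lost without resting replicate 3 or 4 or activated replicate 1 or 2 (0.20, 0.15, 0.17 and 0.18). In IgG cells it was 0.08 lower (adjusted p = 0.546). The dimmer Mcpt4 probe, with ratios of 0.18, 0.17, 0.22 and 0.15 in activated cells at 2 h against 0.06, 0.05, 0.03 and 0.00 in resting cells, did not overlap either, but its difference of 0.15 did not pass (adjusted p = 0.384).

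Mcpt1, a mucosal chymase, had the largest change with time of the 10 genes in IgG cells. Its level in IgG cells (log2 normalized intensity) was 7.68, 7.58, 7.39 and 8.02 in resting cells at 2 h and 6.87, 6.83, 6.58 and 6.96 in resting cells at 16 h. With antigen it was 7.84, 7.82, 7.73 and 8.08 at 2 h and 7.04, 6.99, 6.72 and 7.02 at 16 h. Every 16 h array was thus below every 2 h array. The level fell by 0.86 in resting cells (SE 0.12, 1.82-fold lower, adjusted p = 1.79e-05) and by 0.92 in activated cells (SE 0.12, 1.9-fold lower, adjusted p = 4.14e-06). The size depended on the background correction of this dim probe, with -1.35 and -1.38 by normexp without offset and -1.56 and -1.65 by Feature Extraction's processed signals, all called.

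Anti-TIM-3 cells showed the same step, a fall of 0.81 in resting and 0.84 in activated cells (adjusted p = 2.94e-05 and 9.50e-06), with differences of -1.44 and -1.36 from Feature Extraction's processed signals. Within slides the fall in resting IgG cells was -1.25, -0.85 and -0.71 on slides 1, 2 and 4, and in activated IgG cells -1.18 on slide 3. The antibody's ratio for Mcpt1 was called only in activated cells at 16 h (0.22 ± 0.18, SD, n = 4, adjusted p = 0.0211), with values of 0.30, 0.00, 0.41 and 0.17 that overlap with those of resting cells at 16 h (0.17, -0.10, 0.23 and -0.01), and the call was lost without replicate 1 (0.19) or 3 (0.16).

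Mcpt2, the neighbouring mucosal protease, also fell with time in IgG cells, by 0.39 in resting (adjusted p = 0.0329) and 0.49 in activated cells (adjusted p = 0.00719). Its 2 h values were spread (7.14 to 7.92 in resting cells) and those at 16 h close together (7.05 to 7.20), so the groups overlapped in resting cells. In activated cells they overlapped as well (7.33 to 7.90 at 2 h and 7.04 to 7.37 at 16 h). The call in resting cells was lost without resting 2 h replicate 1 or 2 or resting 16 h replicate 3 or 4 (-0.26, -0.34, -0.39 and -0.36). In anti-TIM-3 cells the falls were 0.54 and 0.64 (adjusted p = 0.00702 and 0.00124), with differences of -0.84 and -1.00 from Feature Extraction's processed signals, both called. In resting cells at 16 h its antibody ratio was below 0 on all 4 arrays (-0.22, -0.18, -0.22 and -0.16; mean -0.19, adjusted p = 0.00257). With antigen at 16 h the mean was -0.11 (adjusted p = 0.0325), lost without any of replicates 1, 2 and 4 (-0.11, -0.11 and -0.076). Without slide 4 the time falls in IgG cells were -0.36 and -0.40, neither called, and with Feature Extraction's processed signals -0.66 and -0.76, both called.

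In these time comparisons many genes moved: 47.6% of all probes were called in resting IgG cells (23.2% higher, 24.4% lower) and 61.2% in activated IgG cells (32.2% higher, 28.9% lower). Of the 10 genes it was 4 and 5. The others in resting IgG cells were Mcpt8, higher, and the brighter Mcpt4 probe, lower by 0.28 (adjusted p = 0.0178, lost without resting 2 h replicate 2 or resting 16 h replicate 1 or 4, with -0.24, -0.23 and -0.22). The dimmer Mcpt4 probe went the other way, higher by 0.55 (adjusted p = 0.00112), so Mcpt4 has no settled direction with time. In activated IgG cells Mcpt8 (0.43), Gzmb (0.33) and Tpsb2 (0.23) were called higher. Each of these 3 calls was lost without some single array. Mcpt8 lost it without activated 2 h replicate 1, 3 or 4 (0.39, 0.43 and 0.40) or activated 16 h replicate 2, 3 or 4 (0.37, 0.38 and 0.41). Gzmb lost it without activated 2 h replicate 4 (0.26) or activated 16 h replicate 3 or 4 (0.36 and 0.30), and Tpsb2 lost it without activated 2 h replicate 1 or 4 (0.17 and 0.22) or activated 16 h replicate 1 or 2 (0.22 and 0.18). In anti-TIM-3 cells 6 genes were called in resting cells (45.1% of all probes, 22.2% higher and 22.9% lower), with Cma1, Cpa3 and Mcpt8 higher and Mcpt1, Mcpt2 and Mcpt4 lower. In activated anti-TIM-3 cells it was also 6 (61.8%, 32.6% higher and 29.2% lower), with Cma1 and Cpa3 higher and Mcpt1, Mcpt2, Mcpt4 and Ctsg lower. Of these, Cpa3 in activated cells (0.24) was lost without activated 16 h replicate 3 (0.17), and Mcpt8 in resting cells (0.47) without resting 2 h replicate 1 (0.42) or resting 16 h replicate 2 (0.36). Without slide 4 the brighter Mcpt4 probe differed by -0.20 in resting IgG and -0.19 in resting anti-TIM-3 cells, neither called. The Mcpt8 rise was 0.46 in resting IgG cells (adjusted p = 0.0276), but within slides it was 0.48, 0.93 and -0.23 on slides 1, 2 and 4, and it was lost without any of resting 2 h replicates 1 and 3 or resting 16 h replicates 2 and 3 (0.41, 0.42, 0.35 and 0.40). Without slide 4 it was 0.69 and called (adjusted p = 0.000233).

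**Figure D3:**
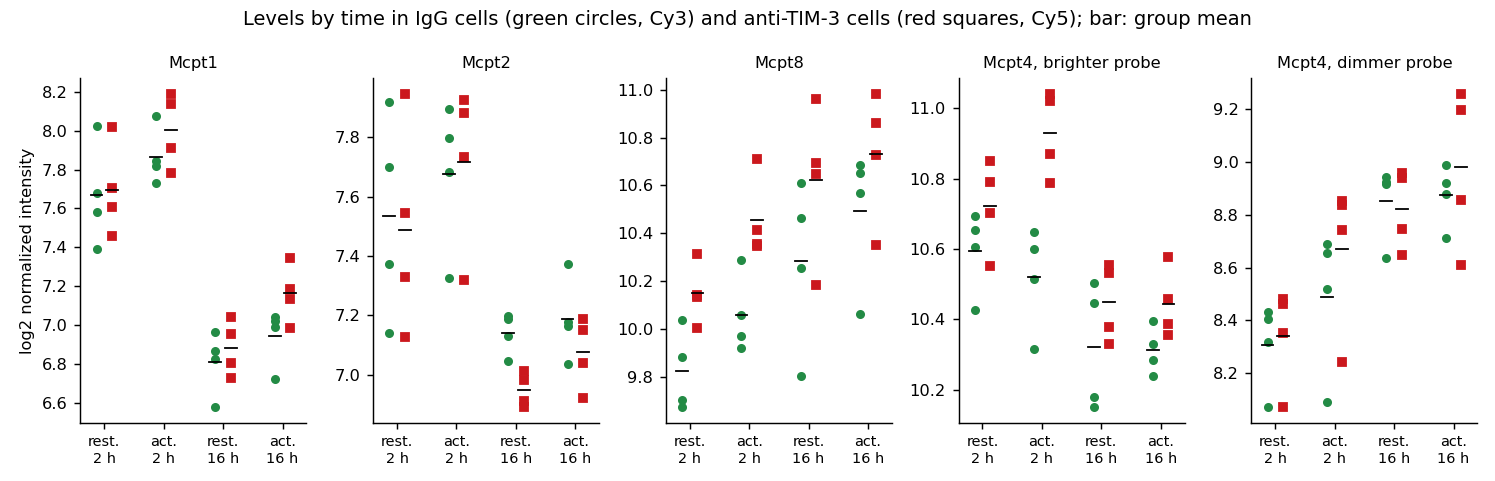
Log2 normalized intensity (y axes, each with its own range) in the 4 groups (x axes) for Mcpt1, Mcpt2, Mcpt8 and both Mcpt4 probes; circles are IgG cells in Cy3, squares anti-TIM-3 cells in Cy5, each point 1 array, bars group means. Mcpt1 lies between 7.39 and 8.08 at 2 h and between 6.58 and 7.04 at 16 h in IgG cells, and the 2 Mcpt4 probes move in opposite directions with time.

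Mcpt1 and Mcpt4 lie close together on chromosome 14, in the row Cma1, Cma2, Mcpt1, Mcpt2, Mcpt9, Mcpt4, Mcpt8, Ctsg. A run of granzymes that ends with Gzmb follows, so 7 of the 10 genes belong to it. Their promoters are shown because they are near copies of each other, beside that of Ctsg, whose antibody ratio is described next. RefSeq's table (build GRCm38.p6) listed a window for 7 of the 10 genes. The 250 bases before the start of Mcpt1 and of Mcpt4 were 81% identical, while the other 20 pairs among the 7 windows lay between 41.9% and 50.4%. The windows are chr14:56017714-56017963 on the plus strand for Mcpt1, chr14:56062311-56062560 on the minus strand for Mcpt4 and chr14:56102575-56102824 on the minus strand for Ctsg, written 5′ to 3′ along the gene with motif matches in capitals:
Mcpt1: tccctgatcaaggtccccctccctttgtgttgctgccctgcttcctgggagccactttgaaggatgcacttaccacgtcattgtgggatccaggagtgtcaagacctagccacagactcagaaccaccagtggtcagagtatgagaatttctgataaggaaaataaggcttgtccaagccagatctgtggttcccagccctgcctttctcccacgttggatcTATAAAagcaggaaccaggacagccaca
Mcpt4: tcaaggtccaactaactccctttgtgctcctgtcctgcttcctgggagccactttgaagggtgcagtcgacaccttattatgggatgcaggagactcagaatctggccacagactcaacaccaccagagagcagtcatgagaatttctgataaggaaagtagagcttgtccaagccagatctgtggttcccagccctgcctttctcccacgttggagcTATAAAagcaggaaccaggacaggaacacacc
Ctsg: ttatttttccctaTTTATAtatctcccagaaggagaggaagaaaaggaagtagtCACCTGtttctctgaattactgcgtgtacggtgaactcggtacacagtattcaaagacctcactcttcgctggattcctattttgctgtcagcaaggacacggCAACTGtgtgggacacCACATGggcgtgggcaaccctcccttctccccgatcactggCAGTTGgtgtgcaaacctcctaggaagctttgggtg
Capitals mark matches on either strand to TATAAA (the TATA box), to CANNTG (the E-box, which basic helix-loop-helix factors such as MITF read) and to AGATAA (read by GATA factors). Mcpt1 and Mcpt4 each held TATAAA, starting 28 and 32 bases before the gene's start, and no E-box, while Ctsg held 4 E-boxes. Of 32817 windows of all genes 12.4% held TATAAA, 66.2% an E-box and 9.99% AGATAA. Among the 7 windows AGATAA was found in 1, that of Cpa3, 46 bases before the start. Other letters around GATA were not searched, and the tgataa in the Mcpt1 and Mcpt4 windows is therefore not marked. These matches describe letters only.

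Ctsg encodes cathepsin G, a chymotrypsin-like protease of neutrophils and mast cells, and its ratio was called lower in activated cells at 16 h and in no other group. Its ratios in activated cells at 16 h were -0.58, -0.46, -0.50 and -0.49. In the other groups they lay around 0. At 2 h they were -0.18, 0.05, -0.08 and 0.07 in resting and 0.05, 0.01, 0.00 and 0.16 in activated cells, and in resting cells at 16 h 0.10, -0.09, -0.19 and -0.07. The activated 16 h group thus did not overlap with any other group, with a mean of -0.51 ± 0.052 (SD, n = 4), 1.42-fold lower (adjusted p = 6.70e-07), but 0.14 and not called under median centring in place of loess.

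Against resting cells at 16 h the ratio was lower by 0.44 (SE 0.067, adjusted p = 0.000461), with -0.36 within slide 1 and -0.62 within slide 4. Against activated cells at 2 h it was lower by 0.56 (adjusted p = 1.53e-05). Within slide 3, the only slide with both groups, it was -0.57 (1 array at 16 h against 2 at 2 h). Both calls held in every alternative run. Of the 10 genes 3 (Ctsg, Tpsab1 and Cma1) had a lower ratio with antigen at 16 h, beside 6.86% of all probes called, 3.81% higher and 3.06% lower. Between 16 h and 2 h in activated cells it was 2 (Ctsg and Mcpt4), beside 15.6%, 7.51% higher and 8.08% lower. In resting cells none of the 10 was called between 16 h and 2 h, where limma called 0.15% of all probes (0.0394% higher, 0.11% lower); 2 of the 10, Cma1 and Mcpt2, had an unadjusted p under 0.05.

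In levels, Ctsg in anti-TIM-3 cells stood at 12.75, 13.04, 13.36 and 12.95 in resting cells at 16 h and at 11.75, 12.07, 12.42 and 12.12 in activated cells, a fall of 0.94 (SE 0.14, -1.03 within slide 1 and -0.84 within slide 4, 1.91-fold lower, adjusted p = 0.000259) and the only call among the 10 genes (18.8% of all probes, 9.19% higher and 9.56% lower). In IgG cells it was lower by 0.49 with antigen at 16 h, which did not pass (adjusted p = 0.0695), with -0.67 within slide 1 and -0.22 within slide 4. At 2 h the corresponding differences were 0.04 in anti-TIM-3 cells and -0.05 in IgG cells, neither called (adjusted p = 0.866 and 0.84).

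**Figure D4:**
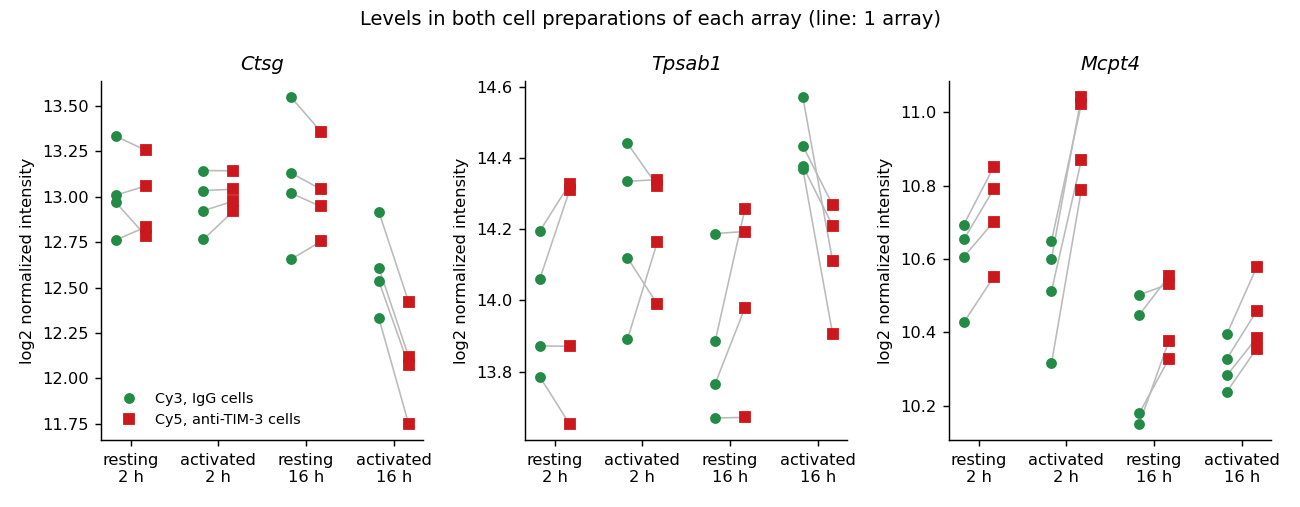
Log2 normalized intensity (y axes, each with its own range) of Ctsg, Tpsab1 and the brighter Mcpt4 probe in the 4 groups (x axes); circles are IgG cells, squares anti-TIM-3 cells, and a line joins the 2 on 1 array. All 4 lines of Ctsg and of Tpsab1 go down in activated cells at 16 h, and all 4 lines of Mcpt4 go up in activated cells at 2 h, from 10.32 to 10.65 up to 10.79 to 11.04.

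Some other myeloid genes moved with Ctsg in activated cells at 16 h, and some did not. The neutrophil granule enzyme Mpo had a ratio of -0.60 (adjusted p = 2.73e-06), and Prtn3, another neutrophil serine protease, -0.01 (adjusted p = 0.865). In levels of anti-TIM-3 cells at 16 h, Mpo differed by -1.12 between activated and resting cells (adjusted p = 0.0252). The other kept neutrophil markers, Prtn3 (-0.04), S100a8 (-0.01) and S100a9 (0.04), were not called in that comparison. In the antibody ratio of activated cells at 16 h, 6 of the 9 kept macrophage and dendritic cell markers were lower and 1 higher (median -0.36). Among the lower were Cd14 (-0.91), Lyz2 (-0.70) and Csf1r (-0.55), and Itgax (0.49) was higher. For that ratio 12% of all probes were called lower and 15.7% higher. The summed intensity of those 9 markers ran from 20919 to 50325 in anti-TIM-3 cells and from 26661 to 74566 in IgG cells of that group, beside 40896 to 97841 and 40112 to 81309 in resting cells at 16 h. The summed neutrophil markers, 4 of 10 kept, ran from 414 to 640 and 548 to 759, beside 586 to 1029 and 727 to 1298. In IgG cells at 16 h Lyz2 (log2 level 15.44 resting, 14.86 activated) was the brightest macrophage marker, followed by H2-Ab1 (12.36 and 12.79). Mpo (9.14 and 8.37) was the brightest neutrophil marker, with the other kept ones at or below 7.22. Lyz2 and Mpo, named above, thus made up the largest part of these sums. In such bulk RNA fewer cells of a type and less RNA per cell cannot be told apart, and the part of these cells in the Ctsg result was not tested.

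Tpsb2 and Tpsab1 are the mouse tryptases mMCP-6 and mMCP-7, adjacent on chromosome 17. In the reference strain RefSeq lists Tpsab1 as a transcribed pseudogene; the labels do not name the strain of these cells, and the array's Tpsab1 probe was well above background throughout. With antibody in activated cells at 16 h, Tpsab1 gave ratios of -0.17, -0.46, -0.17 and -0.46, all below those of resting cells at 16 h (0.21, 0.00, 0.37 and 0.01), with a mean of -0.31 (adjusted p = 0.00638), which was 0.50 under median centring. The 2 groups differed by -0.46 (SE 0.11, adjusted p = 0.0178), with -0.65 within slide 1 and -0.53 within slide 4. That call was lost without any of activated replicates 2 and 4 or resting replicates 1 and 3 (-0.41, -0.41, -0.44 and -0.39).

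The 2 dyes show where the Tpsab1 difference lay. In IgG cells at 16 h antigen went with a higher level, from 13.77, 13.67, 13.89 and 14.19 in resting to 14.38, 14.37, 14.43 and 14.57 in activated cells, with no overlap. That rise was 0.56 (SE 0.12, 1.47-fold, adjusted p = 0.00755), with 0.53 within slide 1 and 0.61 within slide 4, and it was the only call among the 10 genes (11.1% of all probes, 4.8% higher and 6.27% lower). Without the 4 arrays of slide 4 it was 0.59 and missed the threshold (adjusted p = 0.0743). In anti-TIM-3 cells the difference was 0.10 (adjusted p = 0.717). At 2 h the difference in IgG cells was 0.22 (adjusted p = 0.18).

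Tpsb2 was below 0 on all 16 arrays, as 2.82% of all kept probes were, and the antibody's fall and a bias toward Cy3 cannot be told apart in it. Its ratios were -0.11, -0.53, -0.11 and -0.14 in resting and -0.01, -0.29, -0.29 and -0.24 in activated cells at 2 h, and -0.62, -0.31, -0.14 and -0.33 in resting and -0.39, -0.88, -0.21 and -0.79 in activated cells at 16 h. The 16 h groups were called (means -0.35 and -0.57, adjusted p = 0.0207 and 0.000373, the first lost without replicate 1 at -0.26) and those at 2 h were not. Under median centring all 4 means were above 0 (0.37, 0.48, 0.29 and 0.26). Activated and resting cells overlapped at both times and their ratios differed by 0.02 at 2 h and -0.22 at 16 h, not called (adjusted p = 0.974 and 0.389). In Cy5 the Tpsb2 spot was read at low gain on 15 arrays and the Tpsab1 spot on 14, and in Cy3 on none, and the part of this in their ratios was not tested.

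The ratios depended on the scaling within an array, which sets where 0 lies. With the arrays centred on their median in place of loess, the median of all kept probes became 0.18, 0.21, 0.26 and 0.34 in group order. Relative to those medians Ctsg was 0.27, 0.40, 0.23 and -0.20, Tpsb2 0.18, 0.27, 0.03 and -0.08, and Tpsab1 in activated cells at 16 h 0.16. The ratios of the brightest genes grew, relative to the same medians, to 1.29, 1.17, 1.48 and 1.29 for Cma1, to 0.95, 0.97, 1.20 and 1.07 for Cpa3 and to 0.95, 1.15, 1.14 and 0.97 for Gzmb. The ratio of Ctsg in activated against resting cells at 16 h was called under both, that of Tpsab1 was not called under the centring (-0.26, adjusted p = 0.194).

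Gzmb was the only 1 of the 10 genes whose level in IgG cells differed by antigen at 2 h, where 42.9% of all probes were called, 16.9% higher and 26% lower. Its levels were 15.91, 15.57 and 15.53 in resting and 15.25, 15.36, 15.27 and 15.02 in activated cells, without overlap. The fall was 0.45 (SE 0.1, adjusted p = 0.00276), with -0.61 within slide 2 and -0.43 within slide 3, and 0.25 when channels were scaled to their 75th percentile (adjusted p = 0.166). In anti-TIM-3 cells it was 0.35 (adjusted p = 0.0258, lost without resting replicate 1 or 3 or activated replicate 3 or 4, with -0.33, -0.27, -0.33 and -0.29). In those cells 45.9% of all probes were called, 19.5% higher and 26.4% lower. Of the 10 genes Mcpt4 and Mcpt1 (0.31, adjusted p = 0.0427, lost without resting replicate 1, 2 or 3 or activated replicate 1 or 4, with 0.31, 0.23, 0.28, 0.26 and 0.25) were higher and Gzmb lower. Lymphocyte and NK cell markers, 6 of 10 kept and Gzma not, summed to 625 to 651 in resting and 952 to 1010 in activated IgG cells at 2 h. Among them Nkg7 stood at 7.37 in resting and 8.92 in activated cells, and the others between 6.17 and 6.98 in both. The part of lymphocytes and NK cells in the Gzmb values was not tested.

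At 16 h Gzmb in IgG cells differed by 0.02 between activated and resting cells (adjusted p = 0.945). The antigen effect was therefore 0.47 higher at 16 h than at 2 h (adjusted p = 0.0366), the only such call among the 10 genes (32.8% of all probes, 18.8% higher and 14% lower). It rested on 2 activated 16 h arrays and was lost without any of resting 2 h replicate 1 (0.35), activated 2 h replicates 1 and 4 (0.47 and 0.40), activated 16 h replicates 3 and 4 (0.50 and 0.43) or resting 16 h replicates 3 and 4 (0.41 and 0.48). Mcpt8 had ratios of 0.25 to 0.44 in resting and 0.36 to 0.43 in activated cells at 2 h and of 0.18 to 0.44 and 0.16 to 0.29 at 16 h, called in all 4 groups (means 0.33, 0.40, 0.34 and 0.24) and not called in any of the 4 comparisons between groups. Basophil markers, 6 of 7 kept, summed to 33982 to 39702 in resting and 41437 to 47114 in activated IgG cells at 2 h, and to 28173 to 29627 and 36965 to 41888 at 16 h. In anti-TIM-3 cells activated for 2 h they summed to 121190 to 130508. Single markers differed: between activated and resting anti-TIM-3 cells at 2 h Il4 (3.58), Ccl3 (2.29) and Cebpa (0.32) were called higher. Prss34 (0.04), Cd200r3 (-0.11) and Il3ra (-0.11) were not called. The sum thus does not show a rise of the whole list. The part of basophils in the Mcpt8 values was not tested.

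Relatives of the members at the chymase locus were counted from a list of 9, of which 4 were kept: Mcpt9, Gzmc, Gzmd and Gzme. After 2 h of activation 2 of the 4 were higher with the antibody, Gzmc (0.48) and Gzme (0.46), and 3 differed from resting cells, Gzmc by 0.49, Gzme by 0.44 and Gzmd by 0.43 (adjusted p = 0.0415, 7.46e-05 and 0.00207). These granzymes have near-identical copies beside them, and which of them each probe binds was not checked. After 16 h of activation Gzme (0.53) and Gzmc (0.44) were higher and Gzmd (-0.44) lower. Over all probes 18.1% were called higher after 2 h of activation, and 15.7% higher and 12% lower after 16 h. For the difference between activated and resting cells at 2 h 5.64% of all probes were called, 4.03% higher and 1.6% lower.

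Among 5 kept tryptase relatives of 9, Tpsg1, a membrane-anchored tryptase, was higher in all 4 groups (0.20, 0.27, 0.26 and 0.16), where the antibody and a dye bias cannot be told apart. In IgG cells at 16 h it was also higher in activated than in resting cells, by 0.58 (adjusted p = 5.91e-06), next to the 0.56 of Tpsab1. Of 5 kept carboxypeptidase relatives of 10, 1 was higher in activated cells at 16 h, Cpb1 (0.16), where 15.7% of all probes were called higher.

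Of the 11 enzymes that mature granule proteases or act in lysosomes, 1 was higher and 5 lower with the antibody in activated cells at 16 h (median -0.02). There 15.7% of all probes were called higher and 12% lower. Cathepsin L (Ctsl, -0.84), legumain (Lgmn, -0.41) and cathepsin K (Ctsk, -0.36) were lower, and cathepsin E (Ctse, 0.25) higher. Ctsc, which trims the chymases and granzymes to their active form, was higher in activated cells at 2 h (0.29, adjusted p = 0.00687). Between activated and resting cells at 16 h the ratio of Ctsl differed by -0.68, that of Ctsk by -0.45 and that of Ctse by 0.32 (adjusted p = 5.77e-06, 0.00406 and 0.000383). Of the 10 kept intracellular protease inhibitors of 11, 6 were higher in resting cells at 16 h, led by Serpinb1a (0.82), an inhibitor of cathepsin G and elastase, Serpina3g (0.66) and Cstb (0.37). After 16 h of activation 5 were higher, led by Serpina3g (1.07), Cst7 (0.50) and Serpinb6b (0.30), and Slpi (-0.38), a secreted inhibitor of the same proteases, was lower. In resting cells at 16 h 10.1% of all probes were called higher.

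Serglycin (Srgn), the core protein of the granule's proteoglycan, was higher in all 4 groups (0.47, 0.41, 0.54 and 0.60), so that here too the antibody and a dye bias cannot be told apart. Of the 13 genes for serglycin and its heparin chains 2 were higher and 6 lower in activated cells at 2 h, among the lower Hs6st1 (-0.56), Ndst2 (-0.27) and Chst12 (-0.27), enzymes that add or place sulfate. At 16 h of activation it was 2 and 6, among the lower Ndst1 (-0.47) and Hs6st1 (-0.44). Over all probes 18.1% were called higher and 14.7% lower in activated cells at 2 h, and 15.7% and 12% at 16 h. Of 13 transcription factors known to act on protease genes, Tal1 was higher in all 4 groups (0.39, 0.37, 0.37 and 0.30), again not to be told apart from a dye bias. Gata2 was the only other higher gene in resting 2 h (0.36), resting 16 h (0.44) and activated 16 h (0.15), and 2, 2 and 3 of the 13 were lower. In those groups 6.47%, 8.72% and 12% of all probes were called lower. The Gata2 ratio was lower in activated than in resting cells by 0.43 at 2 h and 0.28 at 16 h (adjusted p = 0.000387 and 0.0117). With activation for 2 h 4 were higher and 3 lower, led by Tal1 (0.37), Runx1 (0.36) and Ikzf1 (0.29) and by Cebpa (-0.27).

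Across the 16 arrays the IgG level of Mcpt1 went most closely with Adamtsl5 (Pearson r 0.96), a probe named NAP028292-1 (0.96) and Psmb7 (0.96), that of Mcpt8 with NAP047296-1 (0.88), Pard6a (0.87) and Haus7 (0.87), and that of Tpsab1 with Prss41 (0.92), Plxna1 (0.90) and Prkd3 (0.90). These are descriptions over 4 groups of 4 arrays that share slides and scaling. Between members the levels of the 2 Mcpt4 probes correlated at -0.31 and their ratios at 0.48, and the 2 Cma1 probes at 0.66 and 0.92 (13 arrays).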

How the data were processed

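Feature Extraction 9.1.3.1 (per the file headers; version 9 with protocol 5.5 in the submitters' processing notes) read 45018 spots per array. The deposited intensity columns are mean and background signals per spot, linear and not normalized; the deposited log10 ratio table equals the scanner's own log10 ratio (largest difference 0). A genome build is not given in the sources used here. Here, normexp background correction (offset 50) and loess within arrays gave log2 ratios, and Aquantile scaling gave log2 levels per channel (limma 3.58.1, R 4.3.3). Control spots (1639) and outlier spots (8 of 192 for the 12 probes) were left out. A probe was kept if, in some group, 3 or more of the 4 arrays had it well above background in Cy3 or Cy5. Models used all 4 groups, with Benjamini-Hochberg adjustment over kept probes at 0.05, for 17 comparisons, and 13 other settings were tried. The scripts were tested on simulated data. The number of arrays limits the precision.

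The brightest probe stood for a gene. Names came from RefSeq by accession (22951 probes), symbol (6659) or older symbol (3109), and 8455 kept the file's name. The 10 genes, and 140 genes in 15 lists, were chosen with earlier results of these data known. By rule, at most the 3 called genes with the largest rise and the 3 with the largest fall were named per companion list and comparison, and per member the 3 genes most like it in IgG level, here for the 3 members with the widest span between group means.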

Additional observations from a re-analysis of the deposited data

Results flagged for a closer look

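Of 102 groups of 4 arrays 7 held a value far from the other 3, and chance flags about 1 in 20 groups. In ratios, Cma1 stood at 0.42 in activated 2 h replicate 4 (others 0.50 to 0.52), Tpsb2 at -0.53 in resting 2 h replicate 2 (others -0.14 to -0.11) and Cpa3 at 0.97 in resting 16 h replicate 3 (others 0.54 to 0.58). In levels of IgG cells, Cma1 stood at 16.21 in activated 2 h replicate 3 (others 16.04 to 16.07) and Mcpt1 at 6.72 in activated 16 h replicate 3 (others 6.99 to 7.04). In levels of anti-TIM-3 cells, Cma1 stood at 16.91 in resting 16 h replicate 4 (others 17.09 to 17.11) and Cpa3 at 16.49 in activated 2 h replicate 2 (others 16.56 to 16.57).

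The antibody's ratio differed between groups by limma's test of the difference for Mcpt4 (0.28 between activated and resting cells at 2 h, -0.28 between 16 h and 2 h in activated cells) and for Ctsg (-0.44 between activated and resting cells at 16 h, -0.56 between 16 h and 2 h in activated cells). With antigen at 16 h it was also lower for Tpsab1 (-0.46) and Cma1 (-0.27), which under median centring were -0.26 and -0.10 and not called. The antigen effect on Gzmb in IgG cells differed by 0.47 between 16 h and 2 h.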

How the results depend on the processing

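Of 3410 values of a single gene under an alternative, 3183 stayed on their side of the threshold (146 of these, called in neither setting, changed sign), 142 lost their call, 73 gained one and 12 reversed; of 341 counts of genes called, 289 stayed within 1.5 times. The cause of the changes was not tested. Median centring reversed the ratios of Tpsb2 (0.37, 0.48, 0.29 and 0.26 in resting 2 h, activated 2 h, resting 16 h and activated 16 h), Ctsg (0.45 in resting 2 h, 0.49 in resting 16 h and 0.14 in activated 16 h), and in activated 16 h Tpsab1 (0.50) and Mcpt2 (0.021). The mean over probes reversed the Mcpt4 change with time in resting cells (0.14 in IgG, 0.10 in anti-TIM-3 cells), and the 75th percentile that of Cpa3 in activated anti-TIM-3 cells (-0.022).

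Counts of the 10 genes moved as follows. Median centring gave 8 for resting 2 h, 10 for activated 2 h and 1 for activated against resting at 16 h. Fitting only the groups compared gave 2 for resting 2 h, 7 for activated 2 h and 4 for 16 h against 2 h in activated cells. The Gzmb antigen effect in IgG cells went to 0 with normexp without offset, quantile or 75th percentile scaling, and no filter on dim probes. Activated against resting anti-TIM-3 cells at 2 h gave 1 with normexp without offset, Feature Extraction's processed signals, the 75th percentile and no filter. The 75th percentile gave 3 for time in activated IgG cells, and slide as a block 2 for antigen in IgG cells at 2 h.

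The labels do not say whether a replicate number marks a shared source. Deviations of same-numbered arrays of different groups correlated from -0.447 to 0.623 (median 0.118, 24 pairs), beside -0.587 to 0.535 (median -0.046, 72 pairs) for other pairs, so whether the numbers pair these arrays is not settled. The fit with a replicate block gave 4 (2 h) and 2 (16 h) for antigen in IgG cells, 8 for time in activated IgG cells, 3 for the antigen effect between times and 2 for antigen in anti-TIM-3 cells at 16 h. Of the alternatives chosen after seeing the data, keeping outlier spots gave 2 for antigen in anti-TIM-3 cells at 16 h. Leaving out slide 4 gave 6 for the ratio in activated 16 h, 1 for its difference from resting 16 h, 2 for antigen in IgG cells at 2 h, 0 at 16 h and 2 for time in resting IgG cells.

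Without single arrays the counts for the ratio ran from 3 to 4 (resting 2 h), 4 to 4 (activated 2 h), 5 to 7 (resting 16 h) and 7 to 9 (activated 16 h). For activated against resting they ran from 1 to 1 (2 h) and 1 to 3 (16 h), and for 16 h against 2 h from 0 to 1 (resting) and 2 to 4 (activated). In IgG cells they ran from 1 to 2 (antigen, 2 h), 1 to 2 (antigen, 16 h), 2 to 4 (time, resting), 3 to 5 (time, activated) and 0 to 2 (antigen effect between times). In anti-TIM-3 cells they ran from 0 to 2, 1 to 1, 5 to 6 and 5 to 7 in the same order.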
